A study of Mus musculus with 4 samples.

Results

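The cells compared here belong to XN1, a mouse neural stem cell (NSC) line, and were selected on their own reads of *Pax6* and *Nkx2-2*, which are therefore a description of the groups and no finding. A *Pax6* cell had at least 1 read of *Pax6* and none of *Nkx2-2*, and an *Nkx2-2* cell had at least 1 read of *Nkx2-2* and none of *Pax6*. By this rule, 2064 *Pax6* cells and 1450 *Nkx2-2* cells, 3514 together, were found among the 14452 XN1 cells and the 45325 cells of the tables used for the whole series. A further 353 XN1 cells had reads of both genes and 10585 had reads of neither.

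The series holds 4 NSC lines derived from mouse epiblast stem cells (EpiSCs), each represented by 1 single-cell library made with the BD Rhapsody whole-transcriptome kit. All 4 lines were maintained with EGF and FGF2 at 10 ng/ml each. XN1 was derived and kept with XAV939 at 10 µM, a tankyrase inhibitor that stabilizes Axin and thereby lowers Wnt signaling. CN4 received the GSK3 inhibitor CHIR99021 at 2 µM, which activates Wnt signaling, KN1 received neither compound, and XN4 received XAV939 at 10 µM from another supplier. The XAV939 given to XN1 formed precipitates in the medium. Each condition is thus 1 line and 1 library, so that no p-value was calculated, and the exact 95% intervals given below cover counting error only.

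*Pax6* encodes a paired-type homeodomain transcription factor of the neural tube, where it is present in progenitors of the intermediate and dorsal domains and in radial glia. *Nkx2-2* encodes a homeodomain factor of the ventralmost progenitors next to the floor plate, the p3 domain, and later of the oligodendrocyte lineage. In the embryonic neural tube, Sonic hedgehog activates *Nkx2-2* and limits *Pax6*, and the proteins repress each other, so that their domains share a sharp border. On GRCm38 (GENCODE M21), *Pax6* lies at chr2:105668900-105697364 on the plus strand and *Nkx2-2* at chr2:147177546-147194243 on the minus strand. Both genes overlap antisense genes, *Pax6os1* and *Nkx2-2os* among them, and whether reads were assigned by strand is not given in the sources used here.

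Both groups rested on few reads. Of the *Pax6* cells, 1509 (73.1%) had a single *Pax6* read, 401 had 2, and 154 had 3 or more, with a highest number of 7. Of the *Nkx2-2* cells, 1126 (77.7%) had a single *Nkx2-2* read, 247 had 2, and 77 had 3 or more, with a highest number of 6. The cells just inside the rule therefore differed by 1 read from those just outside it. For comparison, *Pax6* was captured in 0.412% (0.289% to 0.57%) and *Nkx2-2* in 0.0572% (0.0186% to 0.133%) of XN4 cells, at a median of 12615 reads per cell. In XN1, the fractions were 16.7% (16.1% to 17.3%) and 12.5% (11.9% to 13.0%) at a median of 5981.5 reads per cell. Each line was its own library, so that the XN4 values do not measure free RNA in XN1, whose part in these reads was not tested.

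The *Pax6* cells had a median of 6686.5 reads and the *Nkx2-2* cells one of 6760 reads, whereas cells with neither had 5694 and cells with both had 8074. Each *Nkx2-2* cell was paired with the unused *Pax6* cell of nearest depth, which gave 1450 pairs with medians of 6752.5 and 6760 reads. In 1351 pairs the depths were within 1% of each other. The largest difference, 74.5%, occurred among the deepest cells. An equal number of cells with neither was chosen in the same way (median 6760.5 reads). Of the XN1 barcodes, 519 also occurred in another library, those of 86 *Pax6* cells and 54 *Nkx2-2* cells among them. Without these cells, 199 and 71 genes were called in place of the 188 and 69 given next. Capture, the presence of at least 1 read of a gene in a cell, was then compared for all genes other than the pair that defined the groups.

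Few genes passed the ratio that was used to call a difference. Of 7539 genes captured in at least 10% of the paired cells, 188 were higher in *Pax6* cells, which is 2.49% of the genes compared. A gene was called higher in *Pax6* cells where the fraction of *Nkx2-2* cells was at most 0.8 of that of *Pax6* cells. By the reverse rule, a ratio of *Pax6* to *Nkx2-2* cells of 0.8 or lower, 69 genes were higher in *Nkx2-2* cells, or 0.915%. The median ratio of capture in *Pax6* cells to that in *Nkx2-2* cells was 1.00 over all 7539 genes, with a range from 0.67 to 1.96. The ratios were wider among rarely captured genes. Of the 188 genes higher in *Pax6* cells, 134 were captured in 10% to 20% of cells, 40 in 20% to 30%, and 14 in 30% to 50%. Of the 69 genes higher in *Nkx2-2* cells, 63 were captured in 10% to 20% of cells and 6 in 20% to 30%. None of the 1361 genes captured in 50% or more of cells passed the ratio in either direction. At the limit of the call, *Hsf2* was captured in 20.0% of *Pax6* cells and 16% of *Nkx2-2* cells and was counted, whereas *Lsm5*, with 22.8% and 18.3%, was not.

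**Figure D1:**
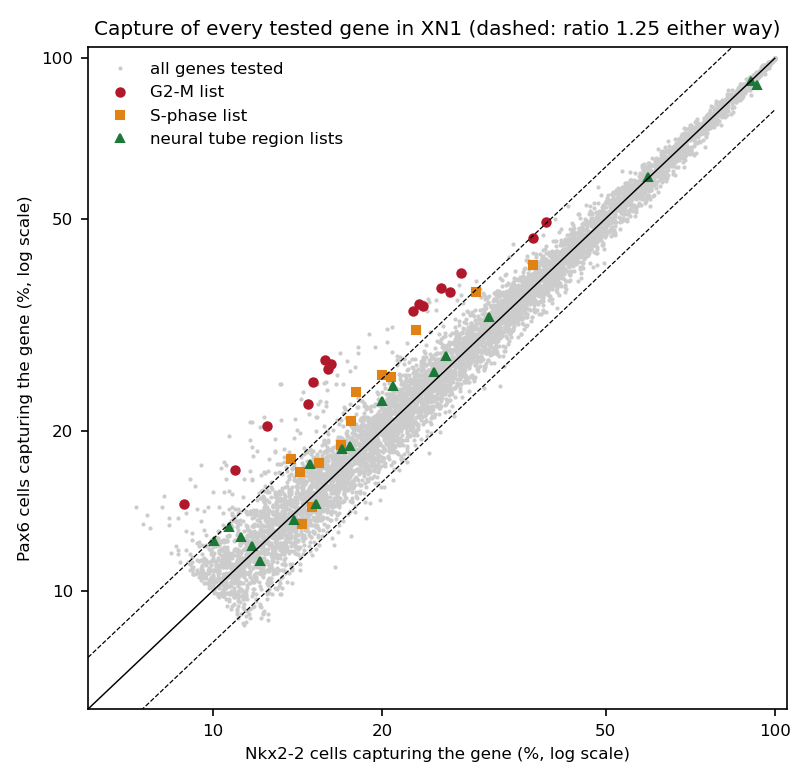
Percentage of 1450 *Nkx2-2* cells (horizontal axis, log scale) and of 1450 *Pax6* cells (vertical axis, log scale) of XN1 that captured each of 7539 genes, with the solid line at equal capture and dashed lines at a ratio of 0.8 either way. The 16 G2-M genes all lie above the solid line and 15 of them above the dashed one, whereas the genes of the neural tube region lists lie between the dashed lines.

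Many of the genes with the most one-sided capture in *Pax6* cells are known from mitosis. Of all 188 genes higher in *Pax6* cells, 15 were in the list of G2-M genes described further on, 4 in the S-phase list, and 19 in any of the lists compared. Of all 7539 genes compared, 16 were in the G2-M list and 13 in the S-phase list, and those in any list were not counted. The 15 genes higher in *Pax6* cells with the most one-sided capture were *Aspm*, *Sgo1*, *Kif20a*, *Depdc1a*, *Kif4*, *Kif2c*, *Cdca2*, *Prr11*, *Cdc20*, *Cep55*, *Cdkn3*, *Dlgap5*, *Cenpa*, *Kif22*, and *Nek2*. They were ranked by how far the exact 95% interval of the *Pax6* part of all capturing cells stood from an even 50%. Most of them are known as components or regulators of the spindle, centromere, or midbody, although *Cdc20* alone was in the G2-M list and no enrichment was tested.

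*Aspm*, which encodes a protein of the spindle poles, was captured in 24.5% of *Pax6* cells (22.3% to 26.8%) and 13.2% of *Nkx2-2* cells (11.5% to 15.02%), a ratio of 1.86. The cells with neither gene captured *Aspm* in 13.0%, so that the *Pax6* cells stood apart from both other groups. *Sgo1*, encoding shugoshin, the protector of centromeric cohesion, had the highest ratio, 1.96, with 14.3% of *Pax6* cells (12.6% to 16.3%), 7.31% of *Nkx2-2* cells (6.02% to 8.77%), and 8.62% of cells with neither. *Cdc20*, the activator of the anaphase-promoting complex, was captured in 27.1% (24.8% to 29.5%), 15.9% (14.0% to 17.8%), and 16.6% of the same groups in that order.

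The kinesins *Kif20a*, *Kif4*, *Kif2c*, and *Kif22*, motor proteins of the spindle and chromosomes, had ratios of 1.84, 1.78, 1.81, and 1.78. *Kif20a* was captured in 24.4% of *Pax6* cells and 13.2% of *Nkx2-2* cells, and *Kif22* in 13.4% and 7.52%. *Cenpa*, the histone H3 variant of centromeres, was the most widely captured of the 15, in 27.9% of *Pax6* cells (25.6% to 30.3%) and 16.8% of *Nkx2-2* cells (14.9% to 18.9%). *Nek2*, a centrosomal kinase, was captured in 14.3% and 8.14%, and *Cdkn3*, a phosphatase that acts on cyclin-dependent kinases, in 13.9% and 7.66%. The intervals of the *Pax6* and *Nkx2-2* cells overlapped for none of the 15 genes, as their ranking implies.

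*Kif20a*, *Kif4*, and *Cdc20* overlap a protein-coding gene on the other strand in GENCODE M21, *Kif22* and *Nek2* an antisense gene, and *Cep55* a small nucleolar RNA gene, so that their reads may include some of the neighbors. *Aspm*, *Sgo1*, *Depdc1a*, *Kif2c*, *Cdca2*, *Prr11*, *Cdkn3*, *Dlgap5*, and *Cenpa* overlap no other annotated gene.

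Many genes of late G2 and mitosis are known to be repressed in resting cells by the DREAM complex, which binds the cell cycle genes homology region (CHR) with the letters TTTGAA close to the transcription start, often beside CCAAT boxes that bind NF-Y. Because most of the 15 genes are known from mitosis, their promoters were searched for exactly these letters on both strands, in RefSeq windows (GRCm38.p6) from 250 bases before to 50 bases after each annotated start. Windows were found for 12 of the 15 genes, 13 windows in all. TTTGAA was present in 11 of the 13 windows, or 84.6%, against 11.5% of the 7756 windows of all genes compared and 17.9% of all 32851 windows. CCAAT was present in 10 of the 13 windows, or 76.9%, against 38.1% and 37.4%. Both were present in 8 windows, or 61.5%, against 4.76% and 6.95%. Over all genes higher in *Pax6* cells, 75 of 200 windows held TTTGAA (37.5%) and 120 held CCAAT. For the 15 most one-sided genes of the other direction, TTTGAA was in 0 of 17 windows and CCAAT in 1. Over all genes higher in *Nkx2-2* cells, TTTGAA was in 6 of 73 windows (8.22%) and CCAAT in 11. These are matches of letters in a window and not sites of measured binding. The 15 genes were picked for 1 direction, and such letters are known from mitosis genes in general. The shares thus describe this kind of gene, and its regulation in *Pax6* and *Nkx2-2* cells was not tested.

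The windows of *Aspm*, *Kif4*, *Cdc20*, and *Cenpa* are printed because each holds both motifs near the start. They were picked after their sequences had been seen. The plus or minus sign is the strand, the sequences run 5′ to 3′ along the gene, and capitals mark TTTGAA and CCAAT or their reverse complements, TTCAAA and ATTGG, which do not overlap one another here.
*Aspm*, chr1:139454523-139454822 (+): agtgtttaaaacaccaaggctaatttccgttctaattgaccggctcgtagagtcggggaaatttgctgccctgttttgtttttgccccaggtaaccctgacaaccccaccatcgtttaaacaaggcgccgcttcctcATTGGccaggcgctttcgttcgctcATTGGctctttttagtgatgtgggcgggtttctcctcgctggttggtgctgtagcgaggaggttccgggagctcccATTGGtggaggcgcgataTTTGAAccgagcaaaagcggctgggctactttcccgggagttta
*Kif4*, chrX:100625815-100626114 (+): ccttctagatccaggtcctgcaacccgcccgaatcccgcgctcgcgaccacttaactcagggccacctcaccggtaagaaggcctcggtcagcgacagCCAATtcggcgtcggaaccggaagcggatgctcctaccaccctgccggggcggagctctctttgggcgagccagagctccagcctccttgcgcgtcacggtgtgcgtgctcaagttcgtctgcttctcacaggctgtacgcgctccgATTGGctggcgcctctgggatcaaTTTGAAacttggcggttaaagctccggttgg
*Cdc20*, chr4:118437294-118437593 (-): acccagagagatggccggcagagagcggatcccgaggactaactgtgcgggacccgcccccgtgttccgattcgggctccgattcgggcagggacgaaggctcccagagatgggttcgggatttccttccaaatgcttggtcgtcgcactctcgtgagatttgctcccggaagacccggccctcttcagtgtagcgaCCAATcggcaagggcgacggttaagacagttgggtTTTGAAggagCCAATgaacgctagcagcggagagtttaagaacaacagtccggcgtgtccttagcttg
*Cenpa*, chr5:30666636-30666935 (+): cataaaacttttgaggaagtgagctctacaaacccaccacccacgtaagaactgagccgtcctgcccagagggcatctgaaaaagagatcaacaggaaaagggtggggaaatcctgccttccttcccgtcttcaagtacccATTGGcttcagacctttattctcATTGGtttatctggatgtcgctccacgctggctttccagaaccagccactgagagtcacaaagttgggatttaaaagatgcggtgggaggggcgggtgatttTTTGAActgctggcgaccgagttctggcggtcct
In *Cdc20*, TTTGAA began 18 bases before the annotated start, with CCAAT 53 and 8 bases before it. In *Aspm*, ATTGG began 113, 88, and 12 bases before the start, and TTTGAA lay just past it.

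A list of 16 genes known from G2 and mitosis was compared as a whole. All 16 members passed the minimum of 10% capture, and 15 of 16 were called higher in *Pax6* cells, against the 2.49% of all genes. The median ratio of the list was 1.504, beside 1.00 for all genes. *Hmgb2*, a chromatin protein of proliferating cells, was the most widely captured member, in 49.4% of *Pax6* cells, 39.1% of *Nkx2-2* cells, and 39.2% of cells with neither. *Top2a*, encoding the topoisomerase that untangles sister chromatids, was the member below the call, with 46.0%, 37.1%, and 36.0% and a ratio of 1.24. *Mki67*, a widely used marker of dividing cells, was captured in 39.4%, 27.7%, and 27.2%. *Ccnb1*, the main mitotic cyclin, was captured in 26.6%, 16.2%, and 16.97%, a ratio of 1.64. The cells with neither gene were close to the *Nkx2-2* cells in every member, with a median ratio of 0.98 between them. Added over the 16 genes, the mean level was 29.3 reads per 10000 reads in *Pax6* cells, 16.3 in *Nkx2-2* cells, and 16.25 in cells with neither.

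**Figure D2:**
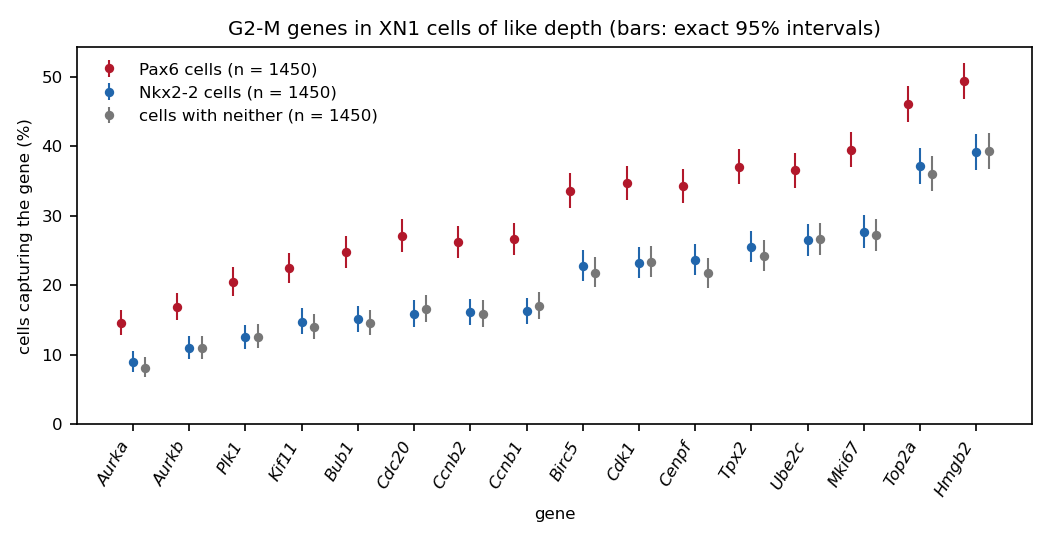
Percentage of XN1 cells that captured each of 16 G2-M genes among 1450 *Pax6* cells, 1450 *Nkx2-2* cells, and 1450 cells with neither transcript, at like depth, with exact 95% intervals as bars. The *Pax6* cells stand highest for every gene, from 14.6% against 8.90% in *Nkx2-2* cells for *Aurka* to 49.4% against 39.1% for *Hmgb2*, and the other groups lie side by side.

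The groups differed in the number of cells with many of these transcripts. At least 8 of the 16 G2-M genes were captured in 31.9% of *Pax6* cells (29.5% to 34.4%), 19.2% of *Nkx2-2* cells (17.2% to 21.3%), and 18.3% of cells with neither (16.4% to 20.4%). Cells without a read of any of the 16 genes made up 28.3% (26.0% to 30.7%), 31.2% (28.9% to 33.7%), and 33.0% (30.6% to 35.5%) of the same groups. All 16 genes were captured in 56 *Pax6* cells and 19 *Nkx2-2* cells. The intervals of the *Pax6* and *Nkx2-2* cells overlapped for the cells without these transcripts and not for the cells with at least 8.

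**Figure D3:**
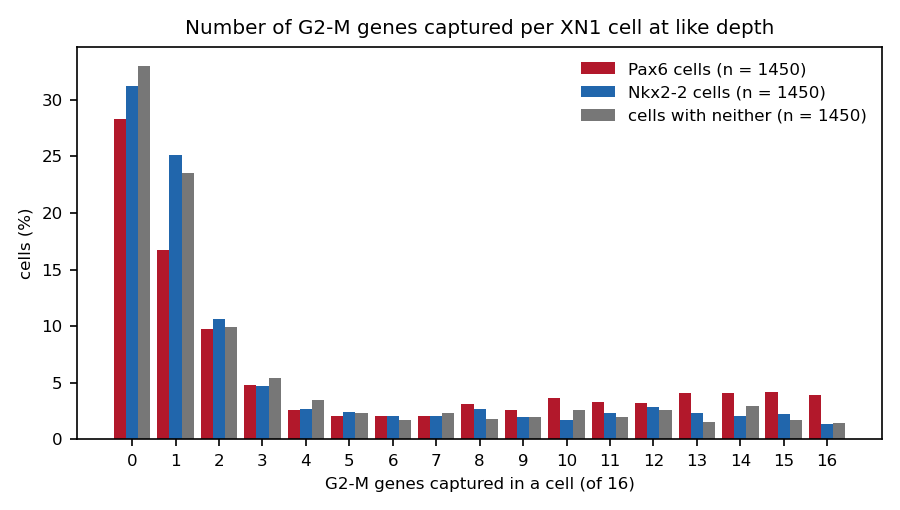
Percentage of cells (vertical axis) by the number of the 16 G2-M genes captured in a cell (horizontal axis), for 1450 *Pax6* cells, 1450 *Nkx2-2* cells, and 1450 cells with neither in XN1. The *Pax6* cells exceed the others at 8 to 16 genes and fall below them at 0 and 1, where 28.3% and 16.7% of *Pax6* cells lie against 31.2% and 25.1% of *Nkx2-2* cells.

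The difference was present at all depths. When the pairs were divided by depth into 4 bins, the median ratio of the G2-M list was 1.32, 1.46, 1.67, and 1.41 from the shallowest to the deepest, and 15, 16, 16, and 16 of the 16 genes had a ratio above 1. Among cells with 2 or more reads of the gene that defined them, at least 8 G2-M genes were captured in 39.4% of 381 *Pax6* cells (34.4% to 44.5%) and 24.1% of 324 *Nkx2-2* cells (19.5% to 29.1%), groups that were not paired again for depth.

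In G2-M transcripts, the 353 cells with both were close to *Pax6* cells. Set beside *Pax6*, *Nkx2-2*, and neither cells of the same depth, 353 each, at least 8 G2-M genes were captured in 34.8% of cells with both (29.9% to 40.1%), 35.1% of *Pax6* cells (30.1% to 40.4%), 24.4% of *Nkx2-2* cells (20.0% to 29.2%), and 22.1% of cells with neither (17.9% to 26.8%). *Aspm* was captured in 26.1% of cells with both, 26.1% of *Pax6* cells, 17.3% of *Nkx2-2* cells, and 13.9% of cells with neither. *Cdc20* was captured in 29.7%, 32.9%, 22.4%, and 19.8% of them. The 15 genes named as higher in *Nkx2-2* cells were mixed in this respect. *Trib1* was captured in 35.4% of cells with both (30.4% to 40.6%), 26.1% of *Pax6* cells, and 32.6% of *Nkx2-2* cells, and *Trim62* in 25.2% (20.8% to 30.1%), 14.7%, and 20.96%. In contrast, *Mdn1* was captured in 23.2% of cells with both, 21.5% of *Pax6* cells, and 31.4% of *Nkx2-2* cells, and *Car12* in 16.7%, 16.997%, and 20.4%. No doublet caller was run, and the part of doublets in the cells with both was not tested.

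The same relation can be given from the other side, as capture of *Pax6* and *Nkx2-2* by the number of G2-M genes captured. It uses the reads that defined the groups in the same library, so that it largely restates the comparison above and is no further support. Every XN1 cell was thinned to 3600 reads for this purpose, and 1858 shallower cells were left out, 128 *Pax6* cells and 112 *Nkx2-2* cells among them. *Pax6* was captured in 9.34% of 5654 cells without G2-M transcripts (8.59% to 10.1%), 9.30% of 3912 cells with 1 to 3 (8.41% to 10.3%), 12.5% of 1168 cells with 4 to 7 (10.7% to 14.5%), and 18.0% of 1860 cells with 8 to 16 (16.3% to 19.8%). The interval of the last group stood apart from those of all others. *Nkx2-2* was captured in 7.02% (6.37% to 7.72%), 8.36% (7.51% to 9.27%), 7.96% (6.47% to 9.67%), and 7.15% (6.02% to 8.42%) of the same groups, with no order. The differences were smaller for other regional transcription factors. *Hoxa5*, of the hindbrain and spinal cord, was captured in 18.1%, 17.8%, 19.2%, and 19.4% of the same groups, and *En2*, of the midbrain and anterior hindbrain, in 11.9%, 12.3%, 14.04%, and 11.7%. *Irx3*, of the intermediate neural tube, was captured in 15.8% (14.9% to 16.8%), 15.03% (13.9% to 16.2%), 12.2% (10.3% to 14.2%), and 13.4% (11.9% to 15.1%). Its capture was lower in cells with 4 to 7 G2-M genes than in cells without, and these intervals did not overlap.

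Among thinned cells with at most 3 G2-M genes, the intervals of *Pax6* capture overlapped whatever the number of S-phase transcripts. Capture was 9.40% of 5042 cells with none of the 16 S-phase genes (8.61% to 10.2%), 9.31% of 3589 with 1 or 2 (8.38% to 10.3%), and 8.98% of 935 with 3 or more (7.23% to 11.0%). The fractions of *Nkx2-2* were 7.20%, 7.77%, and 8.77%.

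**Figure D4:**
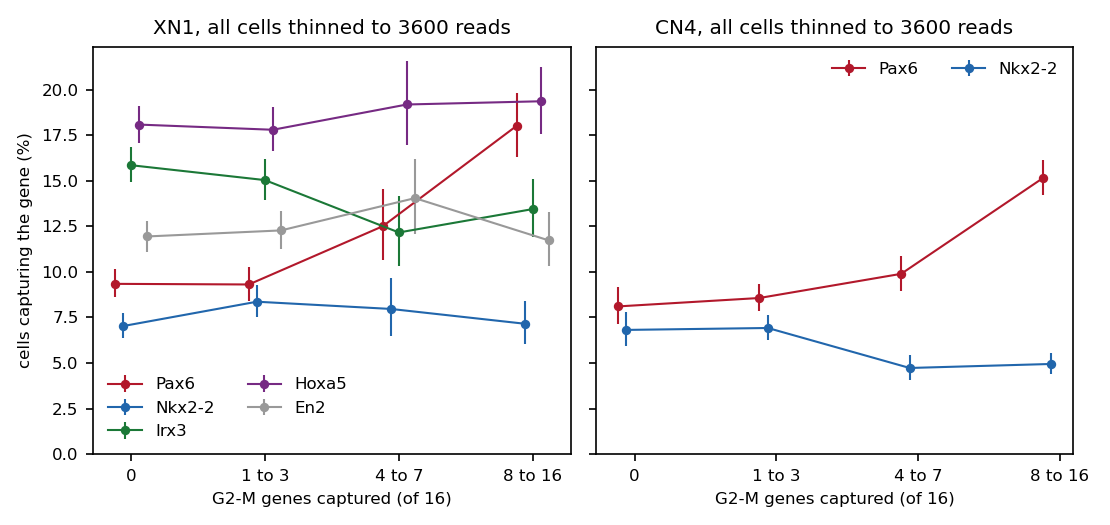
Percentage of cells capturing each gene (vertical axis) by the number of 16 G2-M genes captured (horizontal axis), in XN1 (left) and CN4 (right), with each cell thinned to 3600 reads and exact 95% intervals as bars. *Pax6* is higher in the group with 8 to 16 genes than in the others in both lines, at 18.0% in XN1 and 15.1% in CN4, whereas *Nkx2-2* is at 7.15% and 4.94% there.

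The list of 16 S-phase genes, of which 13 passed the minimum, gave a smaller difference in XN1. There, 4 of 13 were called higher in *Pax6* cells and 0 lower, against 2.49% and 0.915% of all genes, with a median ratio of 1.18. The count was 1 of 13 with pairing on genes detected and 2 of 13 in cells of the normalized table, where 2.04% and 7.24% of all genes were called in this direction. It was 5 of 13 without pairing and 4 of 8 in cells thinned to 3600 reads, against 2.44% and 2.55% of all genes. With at least 2 reads of the compared gene it was 3 of 6, against 3.24%. With at least 2 reads of the group gene it was 6 of 14, against 7.89%. The called members were *Rrm2* (1.34), a subunit of ribonucleotide reductase, *Uhrf1* (1.31), which recruits maintenance DNA methylation, *Tyms* (1.28), thymidylate synthase, and *Mcm5* (1.27), of the replicative helicase. *Pcna*, the polymerase clamp and the most widely captured member, was in 40.9% of *Pax6* cells and 37.2% of *Nkx2-2* cells. *Ccne1*, a cyclin of the G1 to S transition, had the lowest ratio, 0.93. At least 8 G2-M transcripts were captured in 31.9% of *Pax6* cells and 19.2% of *Nkx2-2* cells, and the part of this difference in the S-phase values was not tested. Without cells with a read of *Mki67* or *Top2a*, 0 of 3 S-phase genes above the minimum were called higher in *Pax6* cells and 1 higher in *Nkx2-2* cells, with a median ratio of 0.92. Without cells with any G2-M read, the counts were 0 and 1 of 2, with a median of 0.74. These medians are over 3 and 2 genes in place of 13, so that they do not give the direction of the list.

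Capture fractions close to 100% cannot vary, so that the 1361 genes captured in at least 50% of cells were also compared by level, as the mean over cells of reads per 10000 reads. By this measure, 7 genes were higher in *Pax6* cells by the same ratio, or 0.514%, and 2 were higher in *Nkx2-2* cells, or 0.147%. The 5 with the highest ratio were *Smc4*, a condensin subunit, with 3.22 reads per 10000 in *Pax6* cells and 2.10 in *Nkx2-2* cells, the tubulin genes *Tubb4b* (2.66 and 1.81) and *Tuba1b* (5.31 and 3.87), *Rad21*, a cohesin subunit (2.33 and 1.69), and *Ube2s*, of the anaphase-promoting pathway (1.79 and 1.39). Their levels in cells with neither were 2.21, 1.80, 3.85, 1.77, and 1.41, next to those of the *Nkx2-2* cells. *Ube2s* overlaps *Rpl28* and *Tubb4b* overlaps *Fam166a* on the other strand. *Tuba1b* overlaps *Gm49450* on the same strand and *Gm41396* on the other, and *Smc4* overlaps *Mir15b* and *Mir16-2*. Reads of these genes may include some of the neighbors, whereas *Rad21* overlaps no other annotated gene. The other 2 were the histone variant genes *H2afz* and *H2afv*. Without pairing, *Ube2s* and *H2afv* were no longer called, and *Ezh2* and *Tubb5* were.

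The genes higher in *Nkx2-2* cells by level were both D-type cyclins, which drive progression through G1. *Ccnd1* was at 16.8 reads per 10000 in *Pax6* cells, 21.7 in *Nkx2-2* cells, and 20.4 in cells with neither, a ratio of 0.77. *Ccnd2* was at 8.84, 11.2, and 10.8, a ratio of 0.79, and was no longer called without pairing. Both genes were captured in most cells of either group, *Ccnd1* in 95.9% of *Pax6* cells and 97.9% of *Nkx2-2* cells and *Ccnd2* in 85.3% and 90.6%. *Ccnd1* overlaps *LTO1* on the other strand, and *Ccnd2* overlaps *Gm43126* and *9330179D12Rik*, so that their reads may include some of these neighbors.

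Of the 69 genes captured more often in *Nkx2-2* cells, 1 was in any of the lists compared. The share of all genes in any list was not counted, so that this count describes no trait of the 69. Their functions were not tested for enrichment. The 15 most one-sided were *Gm43126*, *Trib1*, *Raph1*, *Kdm7a*, *Nt5e*, *Impdh1*, *Slc38a3*, *Pde12*, *Itih5*, *Zmynd8*, *Mdn1*, *Trim62*, *Acap3*, *Timp4*, and *Car12*. Without pairing, *Zmynd8* (0.825) and *Mdn1* (0.829) no longer passed the call. With pairing on genes detected, *Raph1* (0.809), *Zmynd8* (0.825), *Mdn1* (0.837), and *Trim62* (0.806) did not pass it. Of the 69 genes, 38 and 39 were called in these settings, and of the 188 genes of the other direction 162 and 142. *Gm43126*, a transcript of unknown function, had the lowest ratio of all genes, 0.67, with 11.1% of *Pax6* cells (9.53% to 12.8%), 16.5% of *Nkx2-2* cells (14.6% to 18.5%), and 13.6% of cells with neither. It overlaps *Ccnd2* on the other strand, and *Ccnd2* was itself higher in *Nkx2-2* cells, so that reads of these genes cannot be told apart here. *Trib1*, a pseudokinase gene, was captured in 24.3% (22.1% to 26.6%), 32.4% (30.01% to 34.9%), and 29.0% of the same groups. *Nt5e*, encoding the ecto-nucleotidase CD73, was captured in 13.7% (11.99% to 15.6%), 18.8% (16.8% to 20.9%), and 18.6%.

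The ratios of these 15 genes lay between 0.67 and 0.80, nearer to 1 than those of the 15 genes of the other direction. The intervals of the *Pax6* and *Nkx2-2* cells did not overlap for any of the 15, as follows from their ranking, but they came close for some. *Acap3*, encoding a GTPase-activating protein, was captured in 26.4% (24.2% to 28.8%) and 33.0% (30.6% to 35.5%) of cells. *Timp4*, an inhibitor of metalloproteinases, was captured in 8.90% (7.48% to 10.5%) and 12.2% (10.6% to 14.0%), with bounds next to each other. It overlaps *Syn2* and *Gm17482* on the other strand, and *Pde12* overlaps *Arf4*, so that their reads may include some of these neighbors. Over all 69 genes, the cells with neither lay between the groups for 50 and were nearer to the *Nkx2-2* cells for 43. Over the 188 genes of the other direction, they were nearer to the *Nkx2-2* cells for 172. Both counts are over genes picked in these same cells, so that no likeness of the whole groups is drawn from them. The median ratio of *Pax6* cells to cells with neither was 1.38 over the 188 genes, against 0.98 for *Nkx2-2* cells. These genes were chosen for a difference between the groups, which by itself sets part of these values, and the count over all genes is not given here.

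Genes of the neural tube axes were not among those called between *Pax6* and *Nkx2-2* cells. In the embryo, *Pax6* and *Nkx2-2* mark different levels of the dorsoventral axis, so that lists of intermediate and ventral factors were compared. None of their 4 and 2 members that passed the minimum was called in either direction, and the median ratios were 1.098 and 0.98. With 2.49% and 0.915% of all genes called, a count of 0 among so few genes is near the background. An intermediate gene was called higher in *Pax6* cells under some alternatives, as 1 of 2 genes in cells thinned to 3600 reads and 1 of 4 without the deepest 5% of cells, where 2.55% and 2.60% of all genes were called. The count was also 1 of 4 with 2 reads of the group gene, in cells inside and outside the normalized table, and without cells with a read of *Mki67* or *Top2a*, where the shares of all genes were 7.89%, 7.24%, 3.21%, and 1.29%. *Olig2*, of the motor neuron progenitor domain and the oligodendrocyte lineage, was captured in 90.7% of *Pax6* cells (89.1% to 92.1%) and 90.8% of *Nkx2-2* cells (89.2% to 92.2%). *Olig1* was captured in 89.1% (87.4% to 90.7%) and 93.0% (91.5% to 94.2%), so that its intervals did not overlap. *Irx3*, an intermediate factor, was captured in 25.7% (23.5% to 28.1%) and 24.8% (22.6% to 27.1%), *Irx5* in 24.3% and 21.0%, and *Irx2*, with the highest ratio of these lists at 1.23, in 13.2% and 10.7%.

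Several other factors of the embryonic axis were rare in both groups. *Nkx6-1*, which covers the ventral domains, *Nkx2-9*, a close relative of *Nkx2-2*, and *Olig3*, of the dorsal domains, had 0 reads in the 1450 pairs, which allows an exact upper limit of 0.254% in each group. *Foxa2*, of the floor plate, was captured in 2 *Pax6* cells and 2 *Nkx2-2* cells, and *Pax3*, of the dorsal domains, in 3 and 1. *Dbx2*, of the intermediate domains, was captured in 48 (3.31%) and 50 (3.45%). The names *Pax6* cell and *Nkx2-2* cell stand here for the captured read alone.

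**Figure D5:**
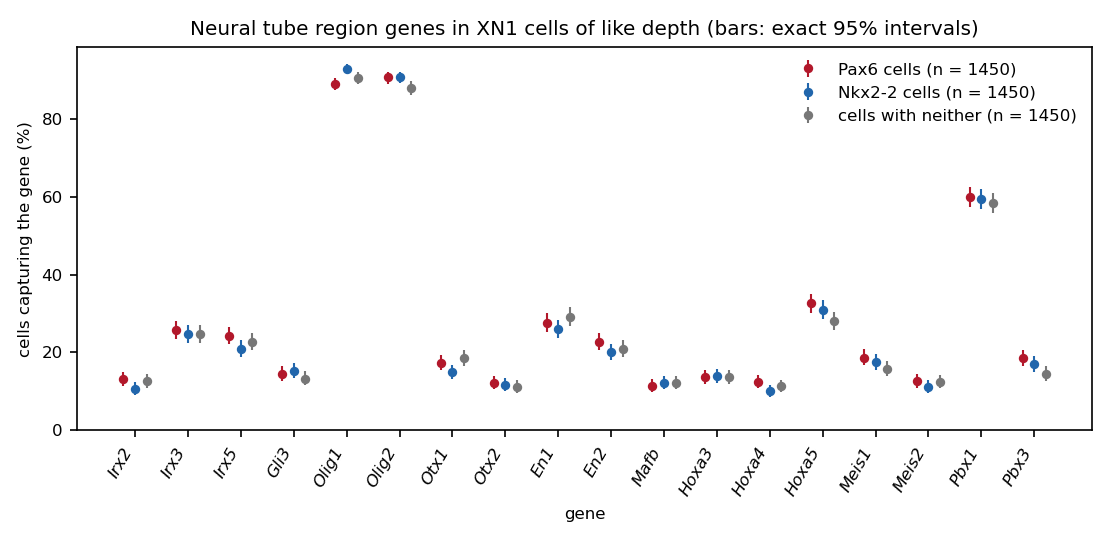
Percentage of XN1 cells that captured each of 18 transcription factor genes of the dorsoventral and anteroposterior axes in 1450 *Pax6* cells, 1450 *Nkx2-2* cells, and 1450 cells with neither, with exact 95% intervals as bars. The *Pax6* and *Nkx2-2* cells lie within the ratio of 0.8 for every gene, as for *Hoxa5* with 32.6% and 31.0% and *Olig2* with 90.7% and 90.8% of *Pax6* and *Nkx2-2* cells. *Olig1* and *Olig2* are captured in too many cells to pass this ratio.

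Along the anteroposterior axis, 12 of 33 genes passed the minimum and none was called, which is near the 2.49% and 0.915% of all genes, with ratios from 0.94 to 1.23 and a median of 1.07. Under alternatives with fewer pairs, 2 of 11 were called higher in *Pax6* cells with at least 2 reads of the group gene and 3 of 11 in cells of the normalized table, where 7.89% and 7.24% of all genes were called in this direction. The forebrain and midbrain genes *Otx1* and *Otx2* were captured in 17.3% and 12.1% of *Pax6* cells and 14.9% and 11.7% of *Nkx2-2* cells. *En1* and *En2*, of the midbrain and anterior hindbrain, were captured in 27.7% and 22.7% against 26.0% and 20.0%. *Hoxa5* was captured in 32.6% (30.2% to 35.1%) and 31.0% (28.6% to 33.4%). *Hoxa4*, with the highest ratio of the list, 1.23, was captured in 12.4% (10.8% to 14.2%) and 10.1% (8.57% to 11.7%), so that the intervals overlapped.

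By capture, no gene of the signaling lists was called in XN1. This count is near the 2.49% and 0.915% of all genes and says little about their members. *Ccnd1*, called by level above, is in the Wnt list. In the hedgehog list, 6 of 11 genes passed the minimum and none was called. *Ptch1*, a receptor and direct target of the pathway, was captured in 26.6% of *Pax6* cells (24.4% to 29.0%) and 29.4% of *Nkx2-2* cells (27.1% to 31.9%), and *Gas1*, a co-receptor, in 82.8% and 79.4%. In the Notch, Wnt, BMP, and EGF and FGF lists, none of 8, 4, 5, and 13 genes was called, and the median ratios were 1.03, 0.96, 1.02, and 0.97. *Myc*, in the Wnt list, was captured in 27.7% and 32.9%. *Spry4* and *Dusp6*, feedback inhibitors of FGF and ERK signaling, were captured in 78.5% and 84.1% of *Pax6* cells and 83.5% and 87.6% of *Nkx2-2* cells. Such widely captured members, *Gas1* among them, had little room for the ratio. None of the 1361 genes captured in 50% or more of cells passed it, so that their lists could hardly reach the shares of all genes.

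The neural progenitor list had a median ratio of 1.00 with none of 15 genes called, and *Sox2* was captured in 68.0% and 65.9%. Members captured as widely as *Sox2* had little room for the ratio, which none of the 1361 genes captured in 50% or more of cells passed. In the astrocyte-like list, 1 of 13 genes was called higher in *Nkx2-2* cells, against 0.915% of all genes. This was *Clu*, encoding the chaperone clusterin, with 12.9% of *Pax6* cells, 16.7% of *Nkx2-2* cells, and 17.3% of cells with neither. No gene of the list was called in cells thinned to 3600 reads, with 2 reads of the compared gene, or without cells with a read of *Mki67* or *Top2a*. Markers of oligodendrocyte precursors were compared because *Nkx2-2* is known in that later lineage. Of that list, without *Nkx2-2* itself, 6 genes passed the minimum and none was called in XN1, which is near the background of 0.915%, whereas 3 of 8 were called higher in *Nkx2-2* cells of CN4, where the share of all genes was 2.0%. In XN1, *Pdgfra* was captured in 11.2% and 10.9%. *Bcas1*, a marker of newly forming oligodendrocytes, was captured in 7.86% and 11.0%, a ratio of 0.72, and just missed the minimum of 10%. *Sox10* was captured in 13 *Pax6* cells and 7 *Nkx2-2* cells.

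The neuron-like, mesoderm-like, neural crest-like, and epiblast-like lists had 2, 2, 1, and 1 genes above the minimum and none called, too few to differ from the 2.49% and 0.915% of all genes, and the endothelial-like and microglia-like lists had none above it. The summed levels of the microglia-like list were 0.0622 and 0.0559 reads per 10000 in *Pax6* and *Nkx2-2* cells, and those of the endothelial-like list 0.0262 and 0.0426. Genes beside *Pax6* and *Nkx2-2* on chromosome 2 were not called either, with 5 and 2 genes above the minimum and median ratios of 1.04 and 1.00. The antisense genes were rare, *Pax6os1* being captured in 13 *Pax6* cells and 10 *Nkx2-2* cells, and *Nkx2-2os* in 15 and 19.

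Over the whole transcriptome, *Pax6* and *Nkx2-2* cells were largely intermingled. Among the 30 nearest neighbors of a paired cell, on 30 principal components of 2000 variable genes without *Pax6* and *Nkx2-2*, 52.5% belonged to the same group, where equal mixing gives 50.0%. For cells with at least 8 G2-M genes, by contrast, 88.1% of the neighbors also had at least 8, against 4.41% for the other cells. *Pax6* cells were 62.5% of the paired cells with at least 8 G2-M genes and 45.7% of the others. The share of *Pax6* cells among the neighbors was 62.0% for the former and 43.7% for the latter.

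A further comparison, added after the data had been seen, used only the cells without a read of any of the 16 G2-M genes, which removes the list itself by construction and left 453 pairs. There, 256 of 6831 genes were called higher in *Pax6* cells and 345 higher in *Nkx2-2* cells, or 3.75% and 5.05%, of which 19 and 25 were among the genes called in all pairs. Other settings with few pairs also called larger shares, 7.89% and 6.63% with 324 pairs and 7.24% and 5.90% with 369. The shares are thus not comparable with those of the 1450 pairs. The intermediate list had 1 of 3 genes called higher in *Pax6* cells, the anteroposterior list 2 of 9, and the ventral and hedgehog lists none of 2 and 4. Called higher in *Nkx2-2* cells were 2 of 14 genes of the astrocyte-like list, 1 of 6 of the oligodendrocyte precursor-like list, 1 of 8 of the Notch list, and 1 of 2 of the S-phase list, and 1 of 3 neighbors of *Nkx2-2* was called higher in *Pax6* cells.

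The same rule was applied to the libraries that the choice of the XN1 genes did not use. In CN4, the CHIR99021 line, 3598 *Pax6* cells and 1746 *Nkx2-2* cells were found among 18157 cells, which gave 1746 pairs at medians of 9907.5 and 9904.5 reads. Of 8443 genes compared, 275 were higher in *Pax6* cells, or 3.26%, and 169 were higher in *Nkx2-2* cells, or 2.0%. The 15 genes named as higher in *Pax6* cells of XN1 all passed the same call in CN4, with a median ratio of 1.58. *Aspm* was captured in 43.1% of CN4 *Pax6* cells and 25.1% of *Nkx2-2* cells, *Cdc20* in 42.4% and 27.7%, and *Nek2*, with the highest ratio of the 15 there, in 25.1% and 13.4%. In the G2-M list, 12 of 16 genes were called in CN4 and none lower, with a median ratio of 1.37. At least 8 of these genes were captured in 58.6% of CN4 *Pax6* cells (56.3% to 61.0%), 41.2% of *Nkx2-2* cells (38.9% to 43.5%), and 45.1% of cells with neither (42.7% to 47.4%).

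Of the 188 genes higher in *Pax6* cells of XN1, 183 passed the minimum in CN4, of which 163 (89.1%) had a ratio above 1 and 89 (48.6%) passed the call, with none at 0.8 or lower. Over all 7196 genes compared in both lines, 45.5% had a ratio above 1 in CN4 and 2.27% passed the call. Of the 69 genes higher in *Nkx2-2* cells, 53 passed the minimum in CN4, of which 41 (77.4%) had a ratio below 1 and 9 (16.98%) one of 0.8 or lower, where the shares over all genes were 53.3% and 1.56%. Among the 15 named genes of this direction, 11 passed the minimum in CN4 and all had ratios below 1, and 3 of them, *Mdn1*, *Trim62*, and *Acap3*, passed the call. *Trim62*, of a family of ubiquitin ligases, was captured in 22.5% of CN4 *Pax6* cells and 33.7% of *Nkx2-2* cells, and *Acap3* in 16.2% and 24.2%.

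In CN4 thinned to 3600 reads, with 543 shallower cells left out, *Pax6* was captured in 8.10% of 2951 cells without G2-M transcripts (7.14% to 9.14%) and 15.1% of 5461 cells with 8 to 16 (14.2% to 16.1%). *Nkx2-2* was captured in 6.81% (5.93% to 7.78%) and 4.94% (4.38% to 5.55%) of them, an order opposite to that of *Pax6*. In the intermediate list, 3 of 6 genes were called higher in *Pax6* cells of CN4, against 3.26% of all genes, and *Irx3* was captured in 16.3% and 11.7% of cells. In the ventral list, none of 2 genes was called, at capture fractions that leave little room for the ratio. Both were captured in fewer *Pax6* cells, *Olig2* in 84.8% (83.1% to 86.5%) and 94.5% (93.3% to 95.5%) and *Olig1* in 87.7% (86.1% to 89.2%) and 95.9% (94.9% to 96.8%). Below the minimum, *Foxa2* was captured in 4.93% and 8.19% and *Shh*, the ligand of the hedgehog pathway, in 1.49% and 4.47%. In the EGF and FGF list, 3 of 13 genes were called higher in *Nkx2-2* cells of CN4, against 2.0% of all genes, and 0 higher in *Pax6* cells. The hedgehog, Notch, Wnt, and BMP lists had at most 1 call in each direction there. The share of cells with at least 8 G2-M genes was higher in every group of CN4 than of XN1, and its part in the difference between the lines was not tested.

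In KN1, the normalized table was turned back to reads, with 233 *Pax6* cells and 71 *Nkx2-2* cells among 3975, hence 71 pairs. The paired *Pax6* and *Nkx2-2* cells had medians of 7343 and 7461 reads and of 1052 and 989 genes. Paired XN1 cells had medians of 2625.5 and 2605 genes, so that capture shares of the 2 lines are not comparable. At least 8 G2-M genes were captured in 7.04% of *Pax6* cells (2.33% to 15.7%) and 5.63% of *Nkx2-2* cells (1.56% to 13.8%), intervals that overlap widely. None of the 16 genes was captured in 12.7% of *Pax6* cells (5.96% to 22.7%) and 32.4% of *Nkx2-2* cells (21.8% to 44.5%), intervals that overlap slightly. Among the 5576 genes captured in at least 10 of the paired KN1 cells, 29.8% passed the ratio toward *Pax6* cells and 26.3% toward *Nkx2-2* cells, so that counts of single genes carry little information there. Of the 15 genes named as higher in *Pax6* cells, 9 were captured in at least 10 cells, of which 6 passed the ratio in that direction and 2 in the other. Of the 15 genes named as higher in *Nkx2-2* cells, 3 were captured in at least 10 cells, of which none had a ratio below 1 and 2 passed the ratio toward *Pax6* cells. XN4 had 36 *Pax6* cells and 5 *Nkx2-2* cells and was not compared.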

How the data were processed

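The XN1, CN4, and XN4 tables hold counts of reads per gene and cell, as deposited by the authors, not molecular identifiers. Per the file headers, they came from the BD Rhapsody WTA Analysis Pipeline 1.12.1 with GRCm38 and gencode vM19, intronic reads included. Whether counting used strand is not given in the sources used here. The KN1 table, and an XN1 table used for an alternative, hold natural log values made by the authors with Seurat 4.3.0, after removal of ribosomal protein and mitochondrial genes. All values turned back to whole reads within 0.01.

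Cells were paired by total reads without *Pax6* and *Nkx2-2*. A gene was called where the lower fraction was at most 0.8 of the higher, among genes captured in at least 10% of paired cells. Named were the 15 called genes in each direction with the most one-sided interval, up to 5 abundant genes in each direction, and list members with the most capturing cells or the highest ratio. Other members were named after their values had been seen, and the groups and lists were chosen with earlier results of these data known. Exact intervals are Clopper-Pearson at 95%. No doublet caller was run, and cells with both transcripts were left out of the groups. Scripts used Python 3.11.15, NumPy 2.4.6, pandas 2.3.3, SciPy 1.17.1, scikit-learn 1.9.0, and matplotlib 3.10.9 and were checked on simulated data. Alternatives changed the pairing, thinning, read and capture minimums, and the cells included. The dorsal neural tube list is not reported here as a list.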

Additional observations from a re-analysis of the deposited data

Results flagged for a closer look

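The S-phase-like list had a median ratio of 1.18 in XN1 and 0.95 in CN4, and the oligodendrocyte precursor-like list one of 1.03 in XN1 and 0.88 in CN4. Both stood out because the medians lay on opposite sides of 1 in the lines. The difference between the lines was not tested, since each line has 1 library.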

How the results depend on the processing

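No paired analysis was possible because each line has 1 library and no replicates to pair, the pairs of the report being cells of like depth. Of the summary values, 32 under the alternatives stayed near those reported, 15 moved, and 1 reversed. Among the named genes, 370 ratios stayed near, 36 moved, and 13 reversed. A named ratio stayed near where it lay inside the exact interval of that gene in the main comparison. The minimums of 5% capture and of 3 capturing cells cannot change these ratios or the G2-M median. The 30 named ratios in each of these settings thus stayed near by construction. The causes of the changes were not tested. A like count did not mean the same genes, since of the 56 genes higher in *Nkx2-2* cells after thinning 8 were among the 69 reported, and of 46 with 2 reads of the compared gene 1 was. For *Pax6* cells, 83 of 136 and 49 of 104 were shared. Fewer genes passed the minimum there, 5335 after thinning and 3208 with 2 reads of the compared gene, against 7539. Genes below the minimum could not be shared, and none of the named ratios reversed in either setting. Both settings reuse reads of the paired cells in which the named genes were picked, so that this is no further support.

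The counts of genes higher in *Pax6* and *Nkx2-2* cells became 604 and 507 with at least 2 reads of the group gene (324 pairs). They were 537 and 438 in cells of the normalized table (369 pairs). Without cells with a read of *Mki67* or *Top2a* (841 pairs), they were 91 and 127. A minimum of 5% capture gave 383 and 210, and a minimum of 3 capturing cells 2539 and 2454. With at least 2 reads of the compared gene, 104 were higher in *Pax6* cells. Without cells with G2-M reads (453 pairs), an alternative added after seeing the data, 345 were higher in *Nkx2-2* cells. Of the abundant genes, 1 was higher in *Nkx2-2* cells without pairing. Cells outside the normalized table, and cells without shared barcodes, were also chosen after seeing the data.

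The G2-M median was 1.68 with 2 reads of the compared gene, 1.30 in the normalized table's cells, and 0.94, over 2 genes, without *Mki67* or *Top2a* cells. In the last setting the ratios were 0.75 for *Kif4*, 0.50 for *Cdca2*, 0.83 for *Cep55*, 0.94 for *Dlgap5*, and 0.50 for *Kif22*. Without cells with G2-M reads they were 0.71 for *Sgo1*, 0.67 for *Depdc1a*, 0.29 for *Cdca2*, 0.67 for *Cep55*, 0.43 for *Dlgap5*, 0.43 for *Kif22*, and 1.03 for *Mdn1*. These settings remove the cells that capture mitosis genes by construction, and 2 and 0 of the 16 G2-M genes still passed the minimum in them. The capturing cells behind these ratios are not counted here, so that they show no direction of the mitosis genes. The ratio of *Kdm7a* was 1.05 with 2 reads of the group gene. A capture by 1 read limits all shares, since an uncaptured gene may still be expressed.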
